A study of Rattus norvegicus with 12 samples.

Results

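The genes described here are 10 interferon-inducible genes of the rat, measured in blood after lipopolysaccharide (LPS), an outer membrane glycolipid of Gram-negative bacteria. They are Irf1, Gbp2, Ifitm3, Rsad2, Bst2, Ifi27, Ifi27l2b, Herc6, B2m and Psmb9. They were found by their symbols in the platform annotation, which gave 12 probes of 7200 and 10 genes of the 3939 with a name, with 2 probes each for Gbp2 and B2m. The genes were chosen on their ratios at 2 h and 6 h in these same arrays, so their values at those times, and the differences between the times, are given as a description. Where the fit over all genes called one of them, the call is part of that description and no test of the gene. All 10 were measured on all 12 arrays, and no filter on low values was applied.

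Total RNA of rats given LPS was hybridised together with control RNA on 2-colour arrays. The 12 arrays held 6 rats, labelled 1, 2 and 3 at 2 h and 2, 4 and 6 at 6 h, and whether the rats numbered 2 were 1 animal is not stated. Each rat was set, on 2 arrays, against the control pool of its own time, one array called fluor (pool in channel 1, LPS rat in channel 2) and one called flip (the channels exchanged). Blood as the tissue is given by the series title alone, and strain, sex, age, LPS dose, vehicle and the number of animals in a pool are likewise not given by the sources used here. Each value is a log2 ratio, and the mean of both arrays of a rat was the unit of replication (n = 3 rats per time). The pool of a time was a single control sample whose own spread is left out, and 6 h minus 2 h includes whatever differed between the pools. Ratios show no level, so the presence of blood cell markers could not be checked, and the number of arrays limits the precision.

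Positive ratios are read as higher after LPS. That direction is likely and not settled: the dyes are not stated, and fluor and flip arrays of the same rat correlated over all probes between -0.23 and 0.25. It rests on textbook LPS-induced genes such as Il1b, the cytokine interleukin-1 beta, which lay between 1.67 and 4.23 on all 12 arrays, with a mean of 3.23 on fluor and 2.71 on flip arrays. The other reading, in which the flip arrays are multiplied by -1, is given below for each gene.

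LPS is sensed by Toll-like receptor 4, one arm of which leads to type I interferon, while lymphocytes and natural killer cells can supply interferon gamma. Interferon receptors signal through Janus kinases to transcription factors. The DNA elements through which these act include the interferon-stimulated response element (ISRE) and the gamma-activated site (GAS). The genes induced include transcription factors, GTPases and antiviral membrane proteins, and parts of the class I antigen presentation route.

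Upstream windows of 250 bases from RefSeq (GRCr8) are shown for 5 of the genes, because these carry the motifs by which the set is usually described and cover its transcription factor, a GTPase, a pair of antiviral effectors and the class I light chain. Each is written 5′ to 3′ on the strand of the gene and ends at the base before its start site. Capitals mark matches, on either strand, to the ISRE core GAAANNGAA, the GAS core TTCNNNGAA or the kappaB consensus (the element bound by NF-kappaB).
Irf1 (chr10:38417685-38417934, plus strand): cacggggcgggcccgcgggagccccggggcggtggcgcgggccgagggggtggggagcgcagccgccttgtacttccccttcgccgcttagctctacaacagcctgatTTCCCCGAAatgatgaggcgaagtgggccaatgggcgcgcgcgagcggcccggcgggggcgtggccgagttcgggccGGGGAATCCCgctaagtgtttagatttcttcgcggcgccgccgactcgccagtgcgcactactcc
Gbp2 (chr2:234005477-234005726, plus strand): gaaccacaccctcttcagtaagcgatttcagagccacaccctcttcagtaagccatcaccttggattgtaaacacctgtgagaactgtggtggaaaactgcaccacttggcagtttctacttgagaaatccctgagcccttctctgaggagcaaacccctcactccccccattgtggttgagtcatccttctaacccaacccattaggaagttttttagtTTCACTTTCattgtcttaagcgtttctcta
Rsad2 (chr6:48788121-48788370, minus strand): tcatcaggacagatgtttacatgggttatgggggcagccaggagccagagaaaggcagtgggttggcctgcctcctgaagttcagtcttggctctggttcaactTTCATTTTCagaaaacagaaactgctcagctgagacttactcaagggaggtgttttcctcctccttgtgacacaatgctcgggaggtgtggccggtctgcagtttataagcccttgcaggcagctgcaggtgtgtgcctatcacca
Bst2 (chr16:18254968-18255217, minus strand): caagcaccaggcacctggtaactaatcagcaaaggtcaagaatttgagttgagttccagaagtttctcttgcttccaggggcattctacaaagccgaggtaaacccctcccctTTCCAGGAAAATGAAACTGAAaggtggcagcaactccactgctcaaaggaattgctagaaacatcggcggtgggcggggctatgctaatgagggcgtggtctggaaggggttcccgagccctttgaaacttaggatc
B2m (chr3:129549080-129549329, plus strand): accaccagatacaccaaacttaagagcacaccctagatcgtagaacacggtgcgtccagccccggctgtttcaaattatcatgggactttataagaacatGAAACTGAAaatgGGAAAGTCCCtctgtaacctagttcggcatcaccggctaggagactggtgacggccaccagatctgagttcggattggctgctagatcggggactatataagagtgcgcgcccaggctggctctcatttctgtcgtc

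The Irf1 window held a GAS core that began 142 bases before the start site and a kappaB match that began at 65 bases. The Gbp2 window held 1 ISRE core, on the minus strand, beginning 30 bases before the start site. In Rsad2 the ISRE core, also on the minus strand, began at 146 bases. Bst2 had 2 overlapping ISRE cores, beginning at 131 and 125 bases, and a GAS core beginning at 137 bases that overlapped the first of them. In B2m an ISRE core began at 150 bases and a kappaB match at 137 bases.

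Windows were found for 9 of the 10 genes, Ifi27l2b being the exception. An ISRE core was present in 6 of the 9 (Gbp2, Ifitm3, Rsad2, Ifi27, Bst2 and B2m), against 8.12% of 33465 promoters of the same length. A GAS core was present in 3 (Irf1, Ifitm3 and Bst2), against 7.67%. The kappaB consensus was present in 3 (Irf1, Ifitm3 and B2m), against 4.24%, and another pattern, the kappaB core GGGNNTTCC, in 0, against 5.09%. The windows of Herc6 and Psmb9 held none of these letters, which says only that they are not in these 250 bases. The matches are descriptions of sequence and were not tied to binding or to the ratios.

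At 2 h the 10 genes went different ways, and at 6 h most stood above the control pool. With limma and an adjusted p under 0.05 over all genes, 3 were called higher at 2 h (Irf1, Ifitm3 and Rsad2), beside 9.34% of all 3939 genes, and 2 lower (Ifi27 and Ifi27l2b), beside 9.82%. At 6 h 6 were called higher (Irf1, Gbp2, Ifitm3, Herc6, B2m and Psmb9), beside 8.30%, and 2 lower (Bst2 and Ifi27l2b), beside 10.7%. These shares are the background, and since the genes were chosen on these ratios nothing is read from the counts. The median of the 10 means was -0.050 at 2 h and 0.36 at 6 h, and that of all genes was -0.0070 and 0.0069. In bulk RNA of this kind, a change in the number of cells of a type and a change in RNA per cell cannot be told apart.

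The calls depended on single rats, for the genes described and over all genes. The genes described come first. Without 2 h rat 1 the number called at 2 h was 3 in place of 5 (Irf1 and Ifi27 lost). Without 2 h rat 2 it was 1 (Irf1, Rsad2, Ifi27 and Ifi27l2b lost), and without 2 h rat 3 it was 2 (Irf1, Ifi27 and Ifi27l2b lost). Without 2 h rat 1 the number called at 6 h was 7 in place of 8 (Psmb9 lost). Without 6 h rat 2 it was 5 (Ifi27l2b, Bst2 and Psmb9 lost), and without 6 h rat 4 it was 4 (B2m lost as well). Without 6 h rat 6 it was 7: Bst2, B2m and Psmb9 were lost, and Rsad2 (higher) and Ifi27 (lower) were gained. Calls over all genes at 2 h went from 755 to 485, 323 and 461 without 2 h rats 1, 2 and 3. They went to 561, 668 and 584 without 6 h rats 2, 4 and 6. Calls over all genes at 6 h went from 749 to 306, 415 and 390 without 6 h rats 2, 4 and 6. Without 2 h rats 1, 2 and 3 they were 626, 927 and 740, of which 927 was a rise. The losses were therefore not limited to the genes described.

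**Figure D1:**
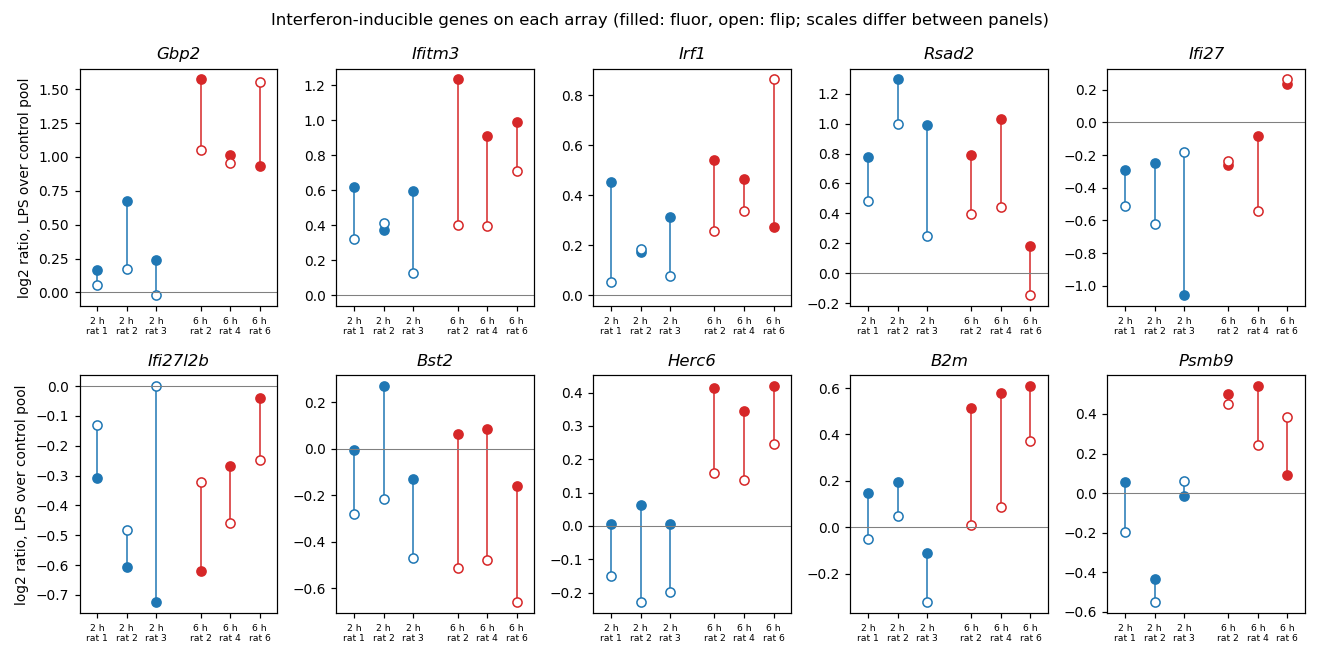
Log2 ratio to the control pool (vertical axes, which differ in scale) of the 10 genes by rat (2 h blue, 6 h red), with filled points for fluor arrays, open points for flip arrays and a line joining the arrays of a rat. Ifitm3 and Irf1 lie above 0 on all 12 arrays and Ifi27l2b below 0 on all 12, while Bst2 at 6 h lies between -0.16 and 0.083 on fluor arrays and between -0.66 and -0.48 on flip arrays.

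Irf1 encodes a transcription factor that is itself induced by interferon gamma and by NF-kappaB and that drives other genes of the set. Its log2 ratios at 2 h were 0.25, 0.18 and 0.20 in rats 1, 2 and 3, and at 6 h 0.40, 0.40 and 0.57 in rats 2, 4 and 6. The ranges did not overlap, and every 6 h rat lay above every 2 h rat. The means were 0.21 ± 0.038 (SD, n = 3; 1.16-fold) and 0.46 ± 0.097 (1.37-fold). On the other reading of the direction the means were 0.10 and -0.030. Its 2 h call ended without any 1 of the 2 h rats and on flip arrays alone. It also ended with trend and robust priors and with the rat as a random block.

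Gbp2 is a guanylate-binding protein, an interferon-induced GTPase that acts on vacuoles holding pathogens. Its ratios were 0.11, 0.42 and 0.11 at 2 h and 1.31, 0.99 and 1.24 at 6 h. All 3 rats at 6 h were far above those at 2 h, among which rat 2 stood apart. The mean went from 0.21 ± 0.18 (SD, n = 3) to 1.18 ± 0.17, or 2.27-fold over control, the 11th highest mean of 3939 genes at 6 h. On the other reading of the flip arrays the means were 0.15 and -0.0059.

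The probes of Gbp2 gave similar values at 6 h and less similar ones at 2 h. Probe 551 gave 0.032, 0.0059 and 0.050 at 2 h, and 1.34, 0.90 and 1.21 at 6 h. Probe 4979 gave 0.18, 0.83 and 0.17 at 2 h, and 1.29, 1.08 and 1.28 at 6 h. The high value of 2 h rat 2 therefore came from 1 probe, which read 1.43 on the fluor array of that rat. Without that rat the 2 h mean of the gene was 0.11.

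**Figure D2:**
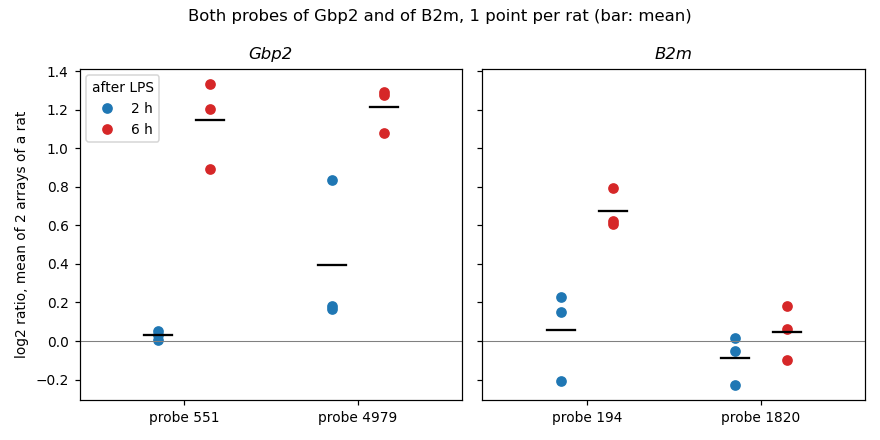
Log2 ratio per rat (mean of 2 arrays, vertical axis) for each probe of Gbp2 and of B2m, with 2 h rats in blue, 6 h rats in red and the mean as a bar. Both Gbp2 probes have 6 h means near each other (1.15 and 1.22), whereas the B2m probes have 6 h means of 0.67 and 0.048.

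Among the antiviral effectors, Ifitm3, a membrane protein that blocks fusion of entering viruses, was above 0 on all 12 arrays. Its ratios were 0.47, 0.39 and 0.36 at 2 h and 0.82, 0.65 and 0.85 at 6 h, with no overlap between the times. The means were 0.41 ± 0.055 (SD, n = 3; 1.33-fold) and 0.78 ± 0.11 (1.71-fold), the 23rd highest of all genes at 6 h. Its means stayed positive with the flip arrays multiplied by -1, at 0.12 and 0.27.

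Rsad2 encodes viperin, a radical SAM enzyme that makes a chain-terminating nucleotide against viruses. Its ratios were 0.63, 1.15 and 0.62 at 2 h and 0.59, 0.74 and 0.016 at 6 h. The times overlapped, 2 h rat 2 was the highest and 6 h rat 6 lay near 0. The mean of 0.80 ± 0.30 (SD, n = 3; 1.74-fold) was the 19th highest of all genes at 2 h, and the 6 h mean was 0.45 ± 0.38. Rsad2 and Bst2 were the only genes of the 10 whose mean was higher at 2 h than at 6 h. On the other reading Rsad2 stood at 0.22 at both times. Its 2 h call ended without 2 h rat 2 and on flip arrays alone.

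Bst2 encodes tetherin, a membrane protein that holds budding virus particles at the cell surface. Its ratios were -0.14, 0.025 and -0.30 at 2 h and -0.23, -0.20 and -0.41 at 6 h, and the times overlapped. The means were -0.14 ± 0.16 (SD, n = 3) and -0.28 ± 0.12. The 6 h value came from the flip arrays: these read -0.52, -0.48 and -0.66, and the fluor arrays of the same rats 0.061, 0.083 and -0.16. With the flip arrays multiplied by -1 the means were 0.18 and 0.27, of the other sign. Its call at 6 h ended on fluor arrays alone, and also without any 1 of the 6 h rats.

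Ifi27 and Ifi27l2b belong to a family of small hydrophobic proteins named for their induction by interferon alpha. Ifi27 read -0.40, -0.43 and -0.62 at 2 h and -0.25, -0.31 and 0.25 at 6 h. All 2 h rats were below all 6 h rats, and 6 h rat 6 was the only 1 of the 6 rats above 0. Its means were -0.49 ± 0.12 (SD, n = 3; 0.714-fold) and -0.10 ± 0.31, and without rat 6 the 6 h mean was -0.28. Ifi27l2b read -0.22, -0.54 and -0.36 at 2 h and -0.47, -0.36 and -0.14 at 6 h, overlapping throughout, with means of -0.38 ± 0.16 and -0.33 ± 0.17. It was below 0 on all 12 arrays, the nearest at -0.00087. On the other reading Ifi27 stood at -0.046 and 0.067, and Ifi27l2b at -0.17 and 0.017. The 2 h call of Ifi27 ended without any 1 of the 2 h rats and on fluor or flip arrays alone. That of Ifi27l2b ended without 2 h rat 2 or 3 and on flip arrays alone. The 6 h call of Ifi27l2b ended without 6 h rat 2 or 4 and on fluor arrays alone.

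Herc6 is a HECT ubiquitin ligase that attaches the interferon-induced modifier ISG15 in mice. Its ratios were -0.072, -0.083 and -0.10 at 2 h and 0.29, 0.24 and 0.33 at 6 h. The 3 rats of each time lay close together, below 0 at 2 h and above it at 6 h. The means were -0.084 ± 0.012 (SD, n = 3) and 0.29 ± 0.046 (1.22-fold). At 2 h the sign differed between arrays, with 0.0056 to 0.062 on fluor and -0.23 to -0.15 on flip arrays, while all 6 arrays were above 0 at 6 h. On the other reading of the direction the mean was 0.11 at both times.

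In the class I route, B2m, the light chain that class I heavy chains need to reach the cell surface, read 0.049, 0.12 and -0.22 at 2 h and 0.26, 0.33 and 0.49 at 6 h. The times did not overlap, and 2 h rat 3 was the lowest. The means were -0.016 ± 0.18 (SD, n = 3) and 0.36 ± 0.12 (1.28-fold). Its probes differed in size. Probe 194 gave 0.15, 0.23 and -0.21 at 2 h and 0.62, 0.61 and 0.79 at 6 h, and probe 1820 gave -0.053, 0.015 and -0.23, and then -0.10, 0.061 and 0.18. Of the pair, only probe 194 had its 6 h rats all above 0 and clear of the 2 h rats. The 6 h call ended without 6 h rat 4 or 6 and on flip arrays alone, and the means on the other reading were 0.093 and 0.20.

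Psmb9 encodes an immunoproteasome subunit that replaces a constitutive beta subunit and alters the peptides made for class I molecules. It read -0.072, -0.49 and 0.023 at 2 h and 0.47, 0.39 and 0.24 at 6 h. The times did not overlap, and 2 h rat 2 was far below the other two. The means were -0.18 ± 0.28 (SD, n = 3) and 0.37 ± 0.12 (1.29-fold). Its 6 h call ended with quantile normalization, with neighbouring probes subtracted and on fluor arrays alone, and without 2 h rat 1 or any 1 of the 6 h rats. Its means were 0.049 and 0.0099 with the flip arrays multiplied by -1.

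Between the times, 6 h minus 2 h was 0.97 (SE 0.11) for Gbp2, the 5th highest of 3939 genes, 0.55 (SE 0.14) for Psmb9 and 0.37 (SE 0.041) for Herc6. It was 0.38 for both Ifi27 (SE 0.15) and B2m (SE 0.10), 0.37 (SE 0.063) for Ifitm3 and 0.25 (SE 0.058) for Irf1. Rsad2 (-0.35, SE 0.22), Bst2 (-0.14, SE 0.095) and Ifi27l2b (0.049, SE 0.11) had rats that overlapped between the times. So the rat means of 7 genes were higher at 6 h without overlap, beside 11.6% of all genes, and those of 0 were lower without overlap, beside 10.1%. Gbp2 and Herc6 were called higher at 6 h, beside 0.330% of all genes, and 0 of the 10 lower, beside 0.178%. The median difference of the 10 genes was 0.37, and that of all genes -0.00071. Both of these calls were lost without 2 h rat 1, 6 h rat 2 or 6 h rat 6, on fluor or flip arrays alone, with quantile normalization and with the flip arrays multiplied by -1. The Gbp2 call was also lost when arrays were centred and scaled, and the Herc6 call without 2 h rat 2.

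**Figure D3:**
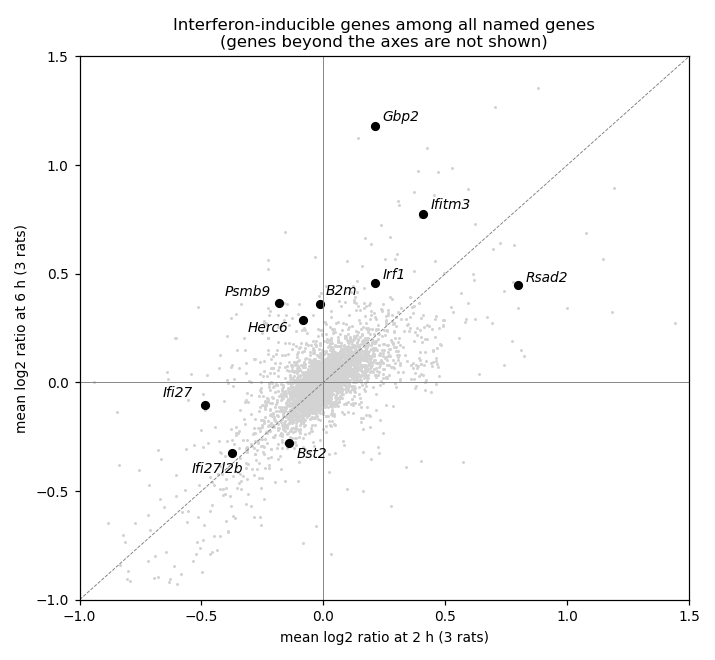
Mean log2 ratio of 3 rats at 2 h (horizontal axis) and at 6 h (vertical axis) for all named genes within the axes (grey points) and the 10 interferon-inducible genes (black, labelled); the dashed line marks equal means. Gbp2 lies farthest above the line (0.21 at 2 h, 1.18 at 6 h), and Rsad2 lies below it (0.80 and 0.45).

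The arrays of a rat also differed from each other. The quantity described is the fluor value minus the mean of both arrays, averaged over the 6 rats, which equals the mean response when the flip arrays are multiplied by -1. The genes were chosen on ratios per array as well as per rat, so it too is a description with no test. In the limma fit over all genes 5 of the 10 were called with fluor above flip, beside 24.8% of all genes, and 0 with flip above fluor, beside 21.5%. Nothing is read from these counts.

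Bst2 stood at 0.23 (SE 0.019), Rsad2 at 0.22 (SE 0.034), B2m at 0.15 (SE 0.022) and Herc6 at 0.11 (SE 0.017), each with fluor above flip in 6 of 6 rats. Ifitm3 stood at 0.20 (SE 0.043), with fluor above flip in 5 of 6 rats. These were the 5 genes called. In Rsad2 at 2 h the fluor arrays read 0.78, 1.30 and 0.99 and the flip arrays 0.49, 1.00 and 0.25. In B2m at 6 h the fluor arrays read 0.51, 0.58 and 0.61 and the flip arrays 0.010, 0.089 and 0.37, with no overlap. The other genes stood at 0.070 (SE 0.067) for Gbp2, 0.037 (SE 0.057) for Irf1, 0.030 (SE 0.039) for Psmb9, 0.010 (SE 0.081) for Ifi27 and -0.077 (SE 0.050) for Ifi27l2b. Ifitm3 and Rsad2 were not called with arrays centred and scaled, and Gbp2 was called with quantile normalization and without 6 h rat 6.

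**Figure D4:**
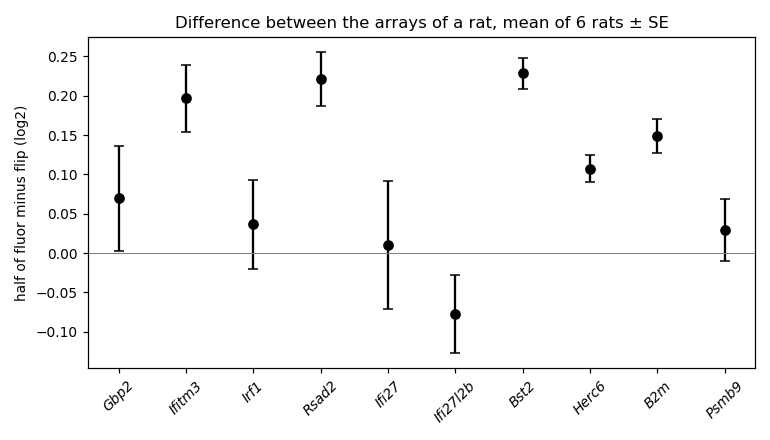
Fluor minus flip difference of each gene, halved, as the mean of 6 rats with SE bars (vertical axis, log2). Bst2 (0.23), Rsad2 (0.22), Ifitm3 (0.20), B2m (0.15) and Herc6 (0.11) lie farthest above 0, and Ifi27l2b (-0.077) lies below it.

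Across the 12 arrays the ratios of the 45 pairs of genes had Pearson correlations from -0.670 (Rsad2 and Ifi27l2b) to 0.874 (Ifitm3 and B2m). Herc6 followed B2m (0.871), Gbp2 (0.865) and Ifitm3 (0.846), and Rsad2 followed Bst2 (0.830). These are descriptions over 12 points that share rats, pools and array orientation. Among all other genes, those most like Gbp2 were Txn1 (0.915), Foxj1 (0.895) and Ywhae (0.893), and those most like Rsad2 were Pcid2 (0.976), Tle5 (0.957) and Arg2 (0.951). For B2m they were C19h1orf198 (0.979), Mef2c (0.975) and the class I heavy chain gene RT1-A1 (0.959). For Ifi27l2b, the gene below 0 on every array, they were Unc13d (0.857), Snrpf (0.851) and Calhm2 (0.818).

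Of 71 listed interferon-stimulated genes, 20 had a named probe, 12 of them outside the 10 genes. By limma with Benjamini-Hochberg adjustment, 0 of these 12 changed at 2 h (2 at an unadjusted p under 0.05). At 6 h 2 rose, beside 8.30% of all genes, and 0 fell, beside 10.7%. The medians of the 12 were 0.036 at 2 h and 0.015 at 6 h, beside -0.0070 and 0.0069 for all genes. Parp9, a cofactor of interferon signalling, rose at 6 h by 0.17 ± 0.060 (SD, n = 3; adjusted p = 0.0180; 3 of 3 rats), and Ifi47, an interferon-induced GTPase, by 0.37 ± 0.21 (adjusted p = 0.0319; 3 of 3 rats). Either call was lost with any 1 of the 6 h rats left out (adjusted p from 0.0561 to 0.124 for Parp9 and from 0.0550 to 0.151 for Ifi47). Both were also lost on fluor arrays alone (adjusted p of 0.0656 and 0.0554). The Ifi47 call was lost too on flip arrays alone (0.0698), with quantile normalization (0.0876) and with arrays centred and scaled (0.0738). With the flip arrays multiplied by -1 neither passed (means of 0.024 and 0.12).

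Mx2, a dynamin-like antiviral GTPase, read 0.19, 0.64 and -0.11 at 2 h and 0.40, 1.40 and 0.37 at 6 h. The 6 h mean of 0.72 ± 0.58 (SD, n = 3) did not pass (limma adjusted p = 0.0586), with 6 h rat 4 far above the other rats. The remaining genes, Cxcl11, Dhx58, Ifi44l, Irf8, Lgals3bp, Oas1a, Rtp4, Trim25 and Ube2l6, had means between -0.13 and 0.13 at 2 h and between -0.10 and 0.12 at 6 h. Between the times 0 of the 12 were called by limma (2 at an unadjusted p under 0.05).

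Of 43 listed interferon ligands, receptors and signalling genes, 8 were measured, among them the receptor chain Ifnar1, the kinases Jak1 and Jak2, and the factors Stat3 and Irf3. By limma 0 of 8 changed at 2 h, at 6 h or between the times (1, 2 and 2 at an unadjusted p under 0.05). Their means lay between -0.12 and 0.052 at 2 h and between -0.10 and 0.079 at 6 h.

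Of 68 listed genes of class I presentation and the immunoproteasome, 12 were measured, 10 of them besides B2m and Psmb9. At 2 h 9 of 10 did not pass, where 9.34% of all genes were called higher and 9.82% lower. The exception was Pdia3, a disulfide isomerase of the peptide-loading complex. It fell by 0.19 ± 0.083 on the log2 scale (SD, n = 3; limma adjusted p = 0.0338). That call was lost without 2 h rat 2, 2 h rat 3 or 6 h rat 2 (adjusted p of 0.164, 0.100 and 0.0616), with quantile normalization (0.0636) and on flip arrays alone, where the mean was -0.023 (adjusted p = 0.802). At 6 h 0 of 10 passed by limma (1 at an unadjusted p under 0.05), and 0 between the times (3 at an unadjusted p under 0.05). RT1-A1, a class I heavy chain gene, read -0.21, 0.21 and -0.44 at 2 h and 0.19, 0.32 and 0.57 at 6 h, with a 6 h mean of 0.36 ± 0.19 (limma adjusted p = 0.0777). That mean is near the 0.36 of B2m, which averages probes at 0.67 and 0.048. In both genes 2 h rat 3 was the lowest, as it was in RT1-CE1 (-0.25) and RT1-N3 (-0.28). In RT1-N2 the lowest was 6 h rat 2 (-0.13). The other RT1 genes measured on the list, RT1-CE1, RT1-N2 and RT1-N3, had 6 h means of 0.22, -0.014 and 0.018.

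Of 7 constitutive proteasome beta subunits, 4 were measured. Psmb4 was below 0 in all 6 rats, at -0.34, -0.40 and -0.31 at 2 h and -0.15, -0.34 and -0.21 at 6 h. It fell at 2 h (mean -0.35 ± 0.045, SD, n = 3; limma adjusted p = 0.00218) and at 6 h (-0.23 ± 0.094, adjusted p = 0.00940). The immunoproteasome subunit Psmb9 had means of -0.18 at 2 h and 0.37 at 6 h. Psmb6, the beta subunit that Psmb9 replaces, was not among the 4 measured. An exchange of subunits could therefore not be seen and was not tested. With the flip arrays multiplied by -1 Psmb4 lost both calls, and its 6 h mean was 0.074. The 2 h call was also lost on flip arrays alone (adjusted p = 0.0547). Psmb1 fell by 0.13 ± 0.066 on the log2 scale at 2 h (adjusted p = 0.0387), a call that was lost without 2 h rat 2 or 3 or any 1 of the 6 h rats (adjusted p from 0.0516 to 0.168). It was lost too on flip arrays alone (mean -0.053), with the flip arrays multiplied by -1 (-0.081) and with neighbouring probes subtracted (-0.016). Psmb2 and Psmb7 did not pass at either time, and by limma 0 of 4 differed between the times (0 at an unadjusted p under 0.05). Over all genes 9.82% were called lower at 2 h and 10.7% at 6 h.

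**Figure D5:**
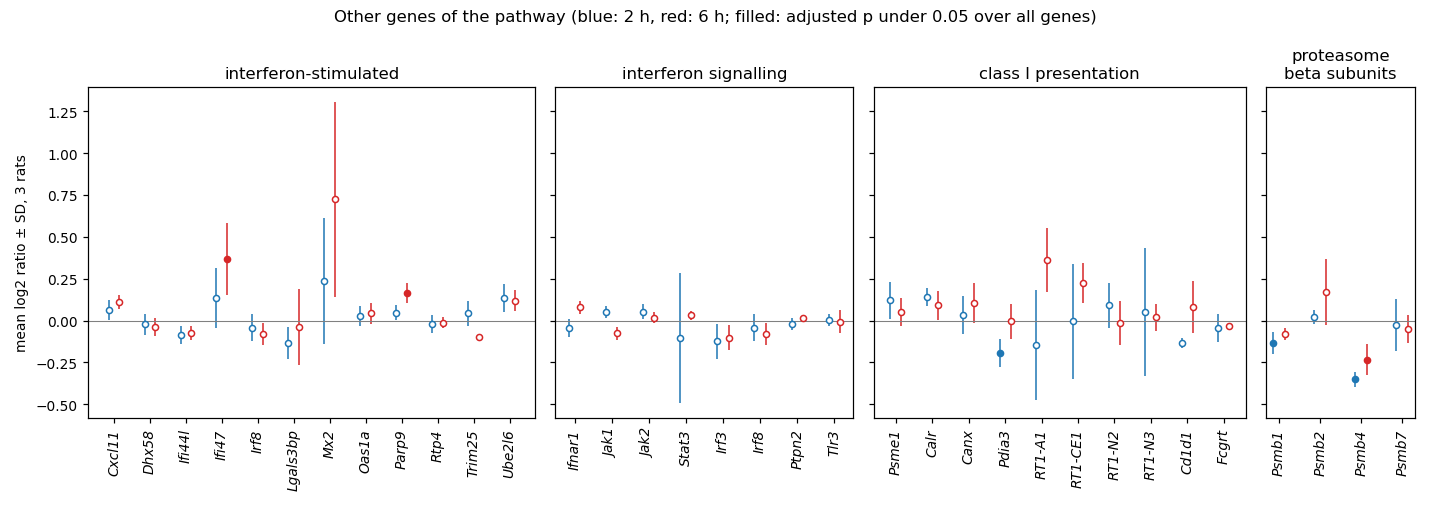
Mean log2 ratio ± SD of 3 rats at 2 h (blue) and 6 h (red) for the other measured genes of the interferon, class I and proteasome lists, filled where the adjusted p was under 0.05. Mx2 has the highest mean at 6 h (0.72, adjusted p = 0.0586 by limma) and Psmb4 the lowest (-0.23).

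Markers of blood cell types also moved. Of 26 measured markers in 7 lists, 10 rose and 6 fell at 2 h, and 6 rose and 7 fell at 6 h, by limma with adjusted p under 0.05. The shares of all genes were 9.34% higher and 9.82% lower at 2 h, and 8.30% and 10.7% at 6 h. Among 4 neutrophil markers (medians of 0.66 and 0.67) S100a9, Lcn2 and Il1r2 rose at both times. S100a8 was called at neither time and stood at -0.083 and -0.053. Of the 4 T cell markers Cd3d and Lef1 fell at both times (medians of -0.31 and -0.18), and 2 and 1 of the 2 B cell markers fell. Among the 3 natural killer and cytotoxic markers, Gzmc and Il2rb rose at 2 h, and Gzmc and Prf1 at 6 h, with a median of 0.42 at 2 h and 0.27 at 6 h. Of 3 monocyte markers, 1 fell at 2 h and 2 at 6 h, and of 8 erythroid markers 4 rose and 1 fell at 2 h, and 1 rose and 2 fell at 6 h. Of 2 platelet markers 1 rose at 2 h and 0 at 6 h. Between the times 0 of the 26 were called by limma (7 at an unadjusted p under 0.05). The part of these shifts in the ratios of the interferon-inducible genes was not tested. Hybridisation of related genes to the probes of the Gbp, Ifitm, Ifi27 and class I families was not tested either.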

How the data were processed

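The deposited table holds a log2 ratio for each probe on each array, per the file headers. Taken as powers of 2, 100% of the ratios under 5 came out as whole multiples of 1e-04 (tolerance 0.05 of that step). The share was 11.9% for base 2 with the ratio inverted, 10.2% for base e and 9.45% for base 10. Array medians lay between -0.020 and 0.0083 and SDs between 0.27 and 0.48. The table had 0 missing values, and on each array 242 to 298 probes shared a repeated value, 0 of them on the genes described. Dyes, scanner, background correction and normalization were not given by the sources used here.

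Of 7200 probes, 4190 had 1 symbol in the platform annotation of 2007, 46 several and 2964 none. Symbols were updated through the RefSeq table of GRCr8, and probes of a gene were averaged (3939 genes). Names rest on that annotation, and probe sequences were not used here.

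Both arrays of a rat carry the same RNA pair and were averaged. All 6 rats were fitted in 1 limma model (3.58.1, R 4.3.3; 4 residual degrees of freedom), as deposited, with Benjamini-Hochberg adjusted p under 0.05 as the threshold. Nothing says how the rats or pools were prepared, so p-values measure only the spread between these samples. The scripts were checked on simulated data. The fluor minus flip difference was planned as a test and is given as a description, because the genes were chosen on ratios per array too.

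The genes and lists were chosen with earlier results of these data known. Named were all 10 genes, the genes of the interferon, class I and proteasome lists past the threshold, and the 3 genes most like Gbp2, Rsad2, Ifi27l2b and B2m. Of the other genes on the lists, and of the cell markers, only some were named. Mx2 and RT1-A1 were given by rat after their values were seen. The alternatives were the sign of the flip arrays, either orientation alone, quantile normalization, scaling, subtraction of the median of 10 probes on each side, the repeated value as missing, 1 probe per gene, other priors, a random block for the rat, and each rat left out. The kappaB consensus and the alternatives for Parp9, Ifi47, Pdia3, Psmb1 and Psmb4 were added after seeing the data.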

Additional observations from a re-analysis of the deposited data

Results flagged for a closer look

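Of the 10 genes, Gbp2 and Herc6 were listed here because the fit over all genes called their 6 h minus 2 h differences, of 0.97 and 0.37 on the log2 scale. Both were chosen on the ratios that make up these differences, so the values are a description and no test. Jak1, a kinase of interferon receptors, had all 2 h rats above 0 and all 6 h rats below 0, with 6 h minus 2 h at -0.13 (limma adjusted p = 0.246), which did not pass. Groups of 3 rats were too small to look for single outlying samples.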

How the results depend on the processing

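As deposited, 755 genes (5 of the 10) were called at 2 h, 749 (8) at 6 h and 20 (2) between the times. With the flip arrays multiplied by -1, the counts of the 10 were 3, 5 and 0, with 559 genes at 2 h, 1461 at 6 h and 0 between. The 3 at 2 h were Rsad2, which kept its call, and Bst2 and Herc6, which were not called as deposited. Gbp2 then stood at -0.0059 at 6 h and -0.15 between the times, Irf1 at -0.030 at 6 h, Ifi27l2b at 0.017, Bst2 at 0.27, Psmb4 at 0.074, and Herc6 at -0.0025 between the times. Fluor arrays alone gave 1142 genes (4 of the 10) at 2 h, 1202 (6) at 6 h and 4 (0) between. Flip arrays alone gave 336 genes (2 of the 10) at 2 h, 1063 (7) at 6 h and 5 (0) between. The 2 at 2 h on flip arrays were Bst2 and Herc6, both lower and not called as deposited. All 5 genes of the 10 called at 2 h as deposited were lost there. Between the times, quantile normalization gave 8 genes (0 of the 10), scaling 1 of the 10 and trend and robust priors 33 genes. The rat as a random block gave 131 genes (4 of the 10) between the times, 1118 (5) at 2 h and 1107 (9) at 6 h. With each rat left out, genes called ranged from 323 to 668 at 2 h with 1 to 5 of the 10, from 306 to 927 at 6 h with 4 to 8, and from 2 to 31 between with 0 to 3. The means of the 10 genes at 2 h, at 6 h and between the times took the other sign, called or not, in 14 of 30 values with the flip arrays multiplied by -1, and in 10 of 450 over the other alternatives. The cause was not tested. No paired analysis was possible because the times share only 1 rat number. Without intensities, dim spots could not be told from bright ones.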
